A study of Mus musculus with 3 samples.

Results

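Hes1, Hes5, Hes6, Hey1, Nrarp, Dtx1 and Lfng, grouped here as Notch target genes, were followed in mouse follicle-associated epithelium in which RBP-J had been depleted. They were chosen by name: all 12 probe sets whose only gene symbol in the platform annotation is one of these 7, out of 34945 probe sets with 1 symbol for 18193 genes. Follicle-associated epithelium is the layer over the lymphoid follicles of the small intestine. The study compared it on Affymetrix arrays between wild type C57BL/6 mice, with 1 array, and C57BL/6 mice in which a Cre recombinase driven by the Villin promoter removes floxed Rbpj, with 2 arrays, KO1 and KO2. All mice were untreated, and the labels state neither their age nor whether tissue was pooled. The Villin promoter is active in intestinal epithelial cells, so lymphocytes and stroma in the same sample keep the gene. The labels do not say that the 2 depleted samples came from separate animals, so their spread may be technical. Each value is an intensity in multiples of the median of its array, so a value of 1 equals that median.

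When a Notch receptor is cleaved, its intracellular part joins the DNA-binding protein RBP-J and the coactivator Mastermind and switches target genes on. Without the receptor fragment, RBP-J can hold the same genes down together with corepressors. In the intestine this pathway keeps progenitors proliferating and turns them toward absorptive cells, and Hes1 does so by repressing Atoh1, the gene that commits cells to the secretory lineage. The 7 genes play different parts in it. Hes1, Hes5 and Hey1 encode basic helix-loop-helix repressors, Hes6 encodes a relative that opposes Hes1, Nrarp is a feedback inhibitor, Dtx1 is a ubiquitin ligase that acts on Notch, and Lfng is a sugar transferase that changes which ligands a receptor answers to.

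The question put to these genes was whether they differed when the DNA-binding protein of the pathway was depleted, so the letters that RBP-J and the Hes proteins bind were first looked for in the 250 bases before the annotated starts. RefSeq windows of assembly GRCm38.p6 matched Hes5, Hes6, Nrarp, Dtx1 and Lfng, with 2 windows for Hes6. The motifs searched on both strands were the RBP-J core TGGGAA, its longer form GTGGGAA, which contains the core, the E-box CACGTG and the N-box CACNAG. The core was in 2 of the 6 windows, those of Hes5 and Lfng, and in 21.6% of all 32851 windows in the RefSeq table. The same 2 windows held the longer form, which was in 5.42% of all windows. The E-box was in the windows of Nrarp and Lfng and in 6.02% of all windows, and the N-box in 4 of the 6 and in 36.7% of all. For Hes5, 2 stretches are shown first, with GTGGGAA or its reverse complement in capitals. The windows of Lfng and Nrarp follow, with the RBP-J core, its longer form and the E-box in capitals. They are shown because Lfng carries 2 copies of the core, of which the one within GTGGGAA overlaps its E-box, while the window of Nrarp holds the E-box and no core. Both probe sets of Nrarp and both of Hes5 were higher in the depleted arrays, while both of Dtx1, whose window holds no core, were lower. Lfng, with the core, and Hes6, without it, each had a probe set split between the depleted arrays. Whether the core bears on the direction was not tested.
Hes5, chr4:154960686-154960715, plus strand: gggcgagcgcgTTCCCACagcccggacatt
Hes5, chr4:154960829-154960858, plus strand: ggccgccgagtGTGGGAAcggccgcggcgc
Lfng, chr5:140607091-140607340, plus strand: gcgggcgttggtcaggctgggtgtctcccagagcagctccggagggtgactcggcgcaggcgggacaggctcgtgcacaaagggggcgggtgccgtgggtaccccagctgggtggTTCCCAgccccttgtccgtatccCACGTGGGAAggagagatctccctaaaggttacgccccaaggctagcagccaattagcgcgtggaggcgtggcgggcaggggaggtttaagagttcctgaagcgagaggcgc
Nrarp, chr2:25180508-25180757, plus strand: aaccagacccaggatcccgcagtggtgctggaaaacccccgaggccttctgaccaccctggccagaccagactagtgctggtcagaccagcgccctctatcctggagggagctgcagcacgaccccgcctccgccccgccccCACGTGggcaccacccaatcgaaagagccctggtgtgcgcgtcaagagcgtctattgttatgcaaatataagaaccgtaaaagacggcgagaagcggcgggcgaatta
A match describes the letters in these windows, and binding was not measured on these arrays.

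Rbpj itself was checked first. Its most intense probe set read 7.15 in wild type, 2.72 in KO1 and 5.74 in KO2, which lay nearer to wild type than to KO1. The other probe sets of Rbpj read 5.37, 4.14 and 4.92, and 3.79, 2.30 and 4.21, in the same order, and the last was higher in KO2 than in wild type. Neither labels nor annotation place them relative to the deleted part, so they do not check the deletion, and "depleted" below means labelled so. Xist read 0.297 in wild type, 42.8 in KO1 and 43.4 in KO2, and the Y-linked Eif2s3y read 20.6 against 0.122 and 0.056. Effects of genotype and of sex therefore cannot be told apart in any comparison here. The 75th percentile of intensity was 4.19 in wild type, 4.05 in KO1 and 4.79 in KO2. Over the 11885 genes tested the median log2 difference from wild type was -0.003 for KO1 and 0.22 for KO2. The KO2 shift was not the same for all genes, so taking off the median does not correct each alike. Quantile normalization moved the KO2 difference of Hes6 1436050_x_at from 0.30 to 0.08, but that of the dim Hey1 only from 1.47 to 1.45. All log2 differences are depleted minus wild type on the log2(value + 0.248) scale, which understates the fold of dim genes.

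Nrarp and Hey1 had higher intensities in both depleted arrays than in wild type, and neither difference passed the test. Nrarp is induced by Notch and promotes the loss of the receptor fragment, which makes it a feedback inhibitor. Its probe set 1417985_at read 3.47 in wild type, 6.89 in KO1 and 8.26 in KO2. The depleted values, 7.58 ± 0.973 (SD, n = 2), lay close together and well above the single wild type value. The log2 differences were 0.94 and 1.19, with a mean of 1.07 (SE 0.49, 95% interval 0.11 to 2.02, limma adjusted p = 0.9997 over all genes tested). Relative to the median gene of each array they were 0.94 and 0.97. A second probe set of Nrarp, 1417986_at, read 1.55, 3.13 and 9.28. It was also lowest in wild type, but its depleted values differed from each other by 2.97-fold, more than KO1 differed from wild type. Its log2 differences were 0.91 and 2.41, with a mean of 1.66 (SE 0.52, limma adjusted p = 0.645 when every probe set was fitted on its own), the lowest adjusted p of the 11 member probe sets fitted.

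Hey1, a repressor best known downstream of Notch in blood vessels and heart, has 1 probe set. It read 0.334 in wild type, 0.887 in KO1 and 1.36 in KO2. Wild type was lowest, and it lay further below the nearer depleted array than the depleted arrays lay from each other. All 3 values are dim, since the wild type value is near the pseudocount and only the KO2 value exceeds the array median. The log2 differences were 0.96 and 1.47, with a mean of 1.22 (SE 0.61, 95% interval 0.01 to 2.42, limma adjusted p = 0.9997). With a pseudocount of 1 the mean was 0.66, so the size of the Hey1 difference is set in large part by that choice, whereas Nrarp moved from 1.07 to 0.93. Among all genes tested, 96.3% had a smaller log2 difference than Nrarp in KO1 and 98.3% in KO2. For Hey1 these shares were 96.5% and 99.4%. Hey1 was tested because its depleted values raised its mean over the 3 arrays above the intensity filter of 0.598, which favours a high place.

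**Figure D1:**
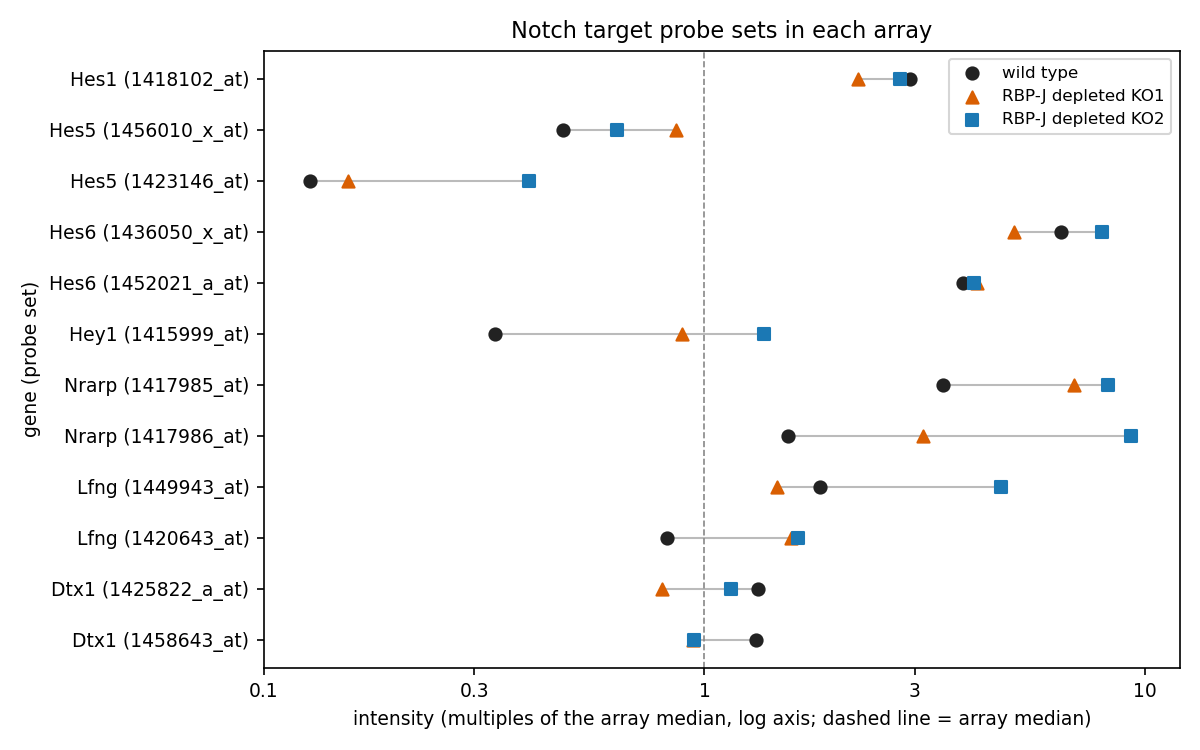
Intensity in multiples of the array median (log axis) of the 12 probe sets of the 7 Notch target genes, with a circle for wild type, a triangle for KO1 and a square for KO2 (RBP-J depleted); the dashed line marks the array median and a grey line spans the 3 values. Wild type is lowest for 7 probe sets (Hey1, both of Nrarp, both of Hes5, Hes6 1452021_a_at and Lfng 1420643_at) and highest for Hes1 and both probe sets of Dtx1.

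Hes1, the repressor that carries much of the Notch signal in the intestine, differed little between the arrays. Its 1 probe set read 2.93 in wild type, 2.23 in KO1 and 2.78 in KO2. Both depleted values were lower than wild type, that of KO2 by less than it differed from KO1. The log2 differences were -0.36 and -0.07, with a mean of -0.21 (SE 0.52, 95% interval -1.23 to 0.80, limma adjusted p = 0.9997). The interval takes in a 2-fold fall as well as no difference. Relative to the median gene the differences were -0.35 and -0.29, which placed Hes1 above 21.6% of genes tested in KO1 and above 25.6% in KO2.

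Hes5, another Notch-induced repressor, best known in the nervous system, was near the lower end of the intensities. Its probe set 1456010_x_at read 0.478 in wild type, 0.862 in KO1 and 0.634 in KO2, all under the array median. Both depleted values were higher, by log2 differences of 0.61 and 0.28 (mean 0.45, SE 0.63, limma adjusted p = 0.9997). The KO2 difference was close to that of the median gene of its array as deposited. After quantile normalization it was 0.27, beside a median of 0.0154 over all genes tested. Probe set 1423146_at read 0.127, 0.155 and 0.400. It was the 1 probe set of the 12 that did not pass the intensity filter, and in wild type and KO1 it lay under the pseudocount. Hes6 promotes neuronal and secretory differentiation in other settings and opposes Hes1. Its probe set 1436050_x_at read 6.44 in wild type, 5.05 in KO1 and 7.99 in KO2, so wild type lay between the depleted arrays and the mean log2 difference was -0.02 (SE 0.48, 95% interval -0.97 to 0.93, limma adjusted p = 0.9997). Its other probe set, 1452021_a_at, read 3.87, 4.17 and 4.09, at most 1.08-fold from wild type, and after quantile normalization the KO2 value lay below wild type, by a log2 difference of -0.08.

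Lfng, a fringe glycosyltransferase that extends O-fucose on Notch receptors, gave different patterns on its 2 probe sets. Probe set 1449943_at read 1.83 in wild type, 1.46 in KO1 and 4.71 in KO2. Wild type and KO1 were close and KO2 stood 3.23-fold above KO1, so the depleted values of 3.09 ± 2.30 (SD, n = 2) span the wild type value. The log2 differences were -0.29 and 1.25, and their mean of 0.48 (SE 0.53, limma adjusted p = 0.9997) rests on KO2. Probe set 1420643_at read 0.820, 1.57 and 1.64. Here both depleted arrays were above wild type and nearly equal to each other, with log2 differences of 0.77 and 0.82 (mean 0.79, SE 0.58, limma adjusted p = 0.9999 when every probe set was fitted on its own).

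Dtx1, a Deltex ubiquitin ligase that is a Notch target in lymphocytes, was lower in both depleted arrays on both probe sets. Probe set 1425822_a_at read 1.32 in wild type, 0.799 in KO1 and 1.15 in KO2. Probe set 1458643_at read 1.31, 0.940 and 0.947, with the depleted values almost equal. The log2 differences were -0.58 and -0.17 for the first of these (mean -0.38, SE 0.58, 95% interval -1.52 to 0.77, limma adjusted p = 0.9997) and -0.39 and -0.38 for the second. The sum of the B cell markers was lowest in the same array as 1425822_a_at: the intensities of the 7 measured of 8 summed to 40.6 in wild type, 16.9 in KO1 and 39.9 in KO2. Cd79a and Cd79b carry the KO2 sum, whereas Ms4a1, Cd22, Cr2 and Pax5 were below wild type in both arrays, as Dtx1 was. Of these, Cr2 was lowest in KO2, at 2.01 against 1.04 and 0.949. Fcer2a was below wild type in KO1 and near it in KO2, at 1.721 against 0.891 and 1.735. Ms4a1 read 11.1 against 4.12 and 6.73, and the median log2 difference of the 7 markers was -1.21 in KO1 and -0.36 in KO2. The part of B cells in the Dtx1 values was not tested. In such bulk samples, fewer cells of a type and less RNA per cell cannot be told apart.

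Counted together, 3 of the 7 genes were higher than wild type in both depleted arrays (Hes5, Hey1 and Nrarp), against 39.0% of all genes tested. Hes1 and Dtx1 were lower in both, against 19.5% of genes tested, and Hes6 and Lfng were split. With quantile normalization these 2 background shares were 30.9% and 29.4%, nearly even. The median log2 difference of the 7 was -0.29 in KO1 and 0.30 in KO2, beside -0.003 and 0.22 over all genes tested, so the group as a whole had no single direction. With limma, 0 of the 7 were called at an adjusted p under 0.05, where 0.0841% of all genes were. The 10 genes behind that share include the sex-linked Xist, Eif2s3y, Kdm5d and Uty. At so small a share, 0 of 7 says little about these genes. At an unadjusted p under 0.05 there were 2, Hey1 and Nrarp, against 2.27% of all genes. Hey1 and Hes5 read 0.334 and 0.478 in wild type, under the intensity filter of 0.598, so their depleted values carried them into the test. The filter thus favours higher differences for these 2 genes in every share taken over genes or probe sets that passed it. Over the 11 probe sets that passed the filter and were fitted singly, 0 were called, where 0.0929% of all probe sets fitted were. None of the 12, that is 0, was at least 2-fold from wild type on the log2 scale in KO1 and KO2 alike, where 0.941% of named probe sets were that much higher and 0.807% that much lower. KO2 alone put 4 of the 12 at least 2-fold above wild type, Hey1, both probe sets of Nrarp and Lfng 1449943_at, where it put 4.20% of named probe sets. KO1 alone put 0 there, and 3.69% of named probe sets. The count depends on the scale: as plain ratios, Hey1 at 2.66 and 4.08 and Nrarp 1417986_at at 2.02 and 6.00 passed 2-fold in both, against 1.82% of probe sets that passed the filter. Nrarp 1417985_at missed it in KO1, at 1.98, and had 2.38 in KO2.

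**Figure D2:**
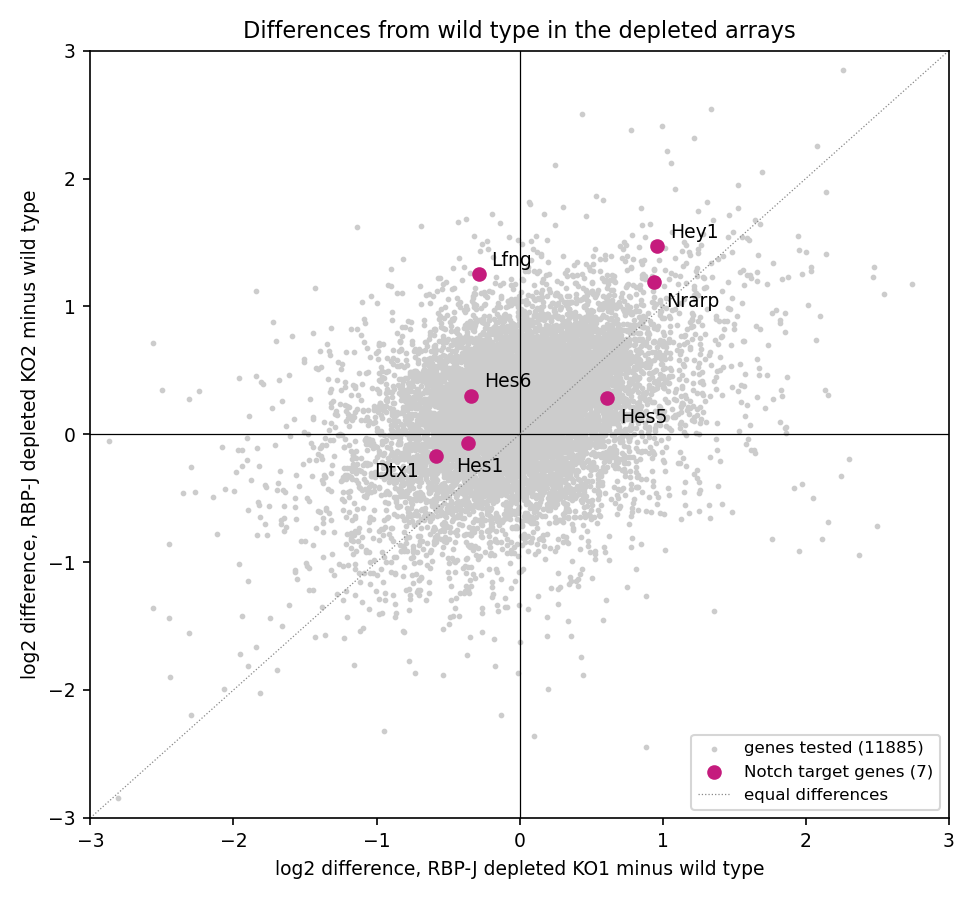
Log2 difference from wild type in KO1 (horizontal axis) and KO2 (vertical axis) for the genes tested (grey) and the 7 Notch target genes (coloured); 11 genes lie outside the plotted range. Hey1 and Nrarp sit in the upper right at 0.96 and 1.47 and at 0.94 and 1.19, Lfng in the upper left at -0.29 and 1.25, and Hes1 and Dtx1 in the lower left within the bulk of the genes.

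The depleted arrays differed from each other in these genes. Of the 12 probe sets, 10 were higher in KO2 than in KO1, as were 60.8% of all named probe sets. On the log2 scale with the pseudocount, Nrarp 1417986_at and Lfng 1449943_at were at least 2-fold apart between them, as were 10.2% of all named probe sets. As a plain ratio the dim Hes5 1423146_at was too, at 2.58. Wild type lay further from the nearer depleted array than the depleted arrays lay from each other, above or below, for 5 probe sets: Hey1, Nrarp 1417985_at, Lfng 1420643_at and Hes6 1452021_a_at on the higher side and Dtx1 1458643_at on the lower. Among probe sets that passed the filter, 17.0% did so on the higher side and 9.41% on the lower. KO1 also had the highest ratio of 3' to 5' Gapdh control probe sets, by which RNA quality is judged: 2.28, beside 1.83 in wild type and 1.54 in KO2. The same ratio for Actb was 1.15 in KO1, 1.11 in wild type and 1.02 in KO2, the same order with a smaller gap. The part of RNA quality in these values was not tested.

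**Figure D3:**
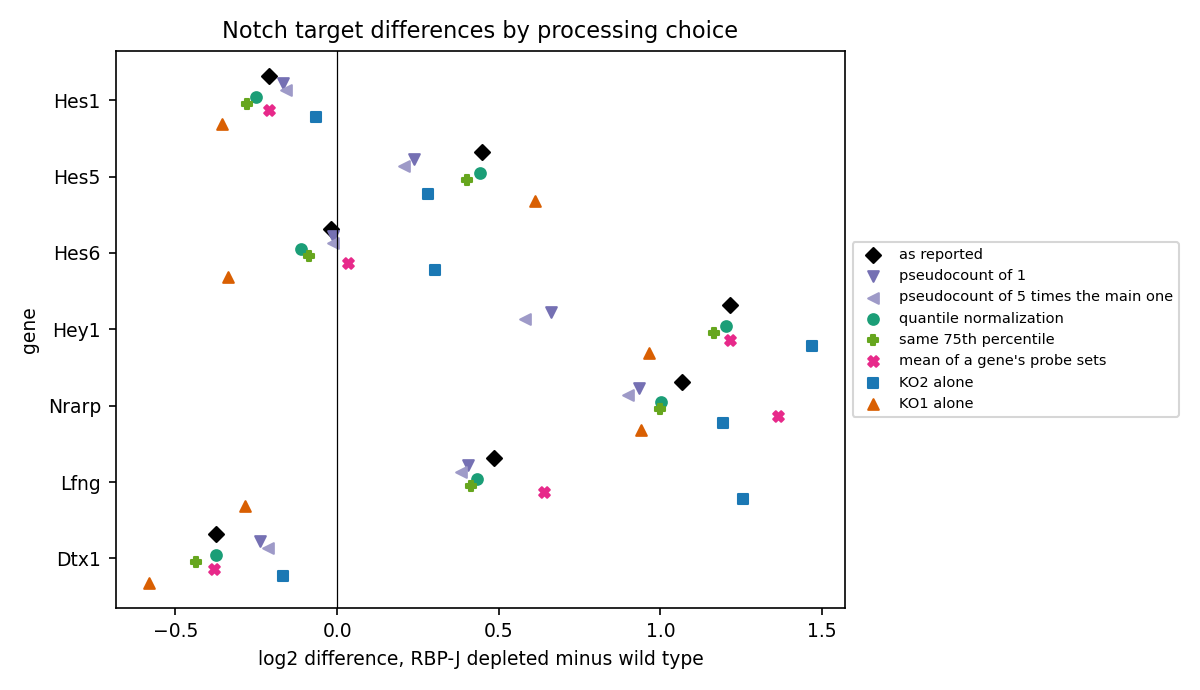
Mean log2 difference from wild type of each Notch target gene as reported (diamonds), with other pseudocounts, scalings and probe set rules, and with KO1 or KO2 alone. Hey1 and Nrarp stay above 0.5 throughout, Hes1 and Dtx1 stay below 0, and Hes6 and Lfng lie on both sides of 0.

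The other genes of the pathway were taken from lists by role, 102 genes in all, of which 75 outside the 7 were tested. With limma, 0 of the 75 were called, where 0.0841% of all genes tested were. An unadjusted p under 0.05 was found for 0 of them and for 2.27% of all genes tested. At such small shares, 0 of 75 says little about these genes. Higher than wild type in both depleted arrays were 29 and lower in both 7, and their median log2 differences were 0.004 and 0.29, close to those of all genes tested. Over all genes tested these shares were the 39.0% and 19.5% given above, so the 29 higher are near the background and the 7 lower are fewer. Quantile normalization gave 24 and 16, beside 30.9% and 29.4% of all genes, and one 75th percentile for all arrays gave 27 and 12, beside 34.2% and 26.1%. The counts by role below are of the values as deposited. In the Hes and Hey family itself 1 of 8 listed genes passed the intensity filter. This was Bhlhe40, a more distant relative known from the circadian clock and hypoxia, at 18.0 in wild type, 21.5 in KO1 and 32.1 in KO2. Heyl, a close relative of Hey1, was too dim for the test. It read 0.087 in wild type, under the pseudocount, 0.916 in KO1 and 0.740 in KO2. Hey2 read 0.092, 0.127 and 0.305. Other dim genes of the list went the other way: Hes7 read 0.498, 0.130 and 0.081, and Bhlhe41 read 1.09, 0.150 and 0.096. Hes2 and Hes3 were lower than wild type in KO1 and higher in KO2.

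Of 22 other genes reported as Notch targets, 17 were tested, with median log2 differences of -0.12 and 0.31. Higher in both were 6, among them Cdkn1a, a cell cycle inhibitor, at 46.3 in wild type, 59.3 in KO1 and 62.4 in KO2. Lower in both were 2: Bcl2, an inhibitor of cell death, at 6.95 against 3.01 and 5.59, and Olfm4, a marker of crypt base stem cells that depends on Notch, at 74.7 against 53.1 and 73.6. Olfm4 was thus nearly equal to wild type in KO2. Among receptors, Notch1 and Notch2 passed the filter, and Notch2 read 6.77 in wild type, 6.74 in KO1 and 13.1 in KO2. Among ligands, Dll4 was lower in both, at 1.47 against 1.07 and 0.592, and Jag1 was slightly higher in both, at 2.40 against 2.62 and 2.90. Of 8 tested genes of receptor cleavage, 4 were higher in both and 0 lower, few genes to set against the 39.0% and 19.5% of all genes. The 4 include Furin, the protease that cuts the receptor precursor, at 9.53 against 13.5 and 17.9, and Psenen, a gamma-secretase subunit, at 28.6 against 38.9 and 41.1.

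Rfng, the fringe related to Lfng, read 6.54 in wild type, 9.73 in KO1 and 9.86 in KO2, so that the depleted values were close to each other, while Mfng read 2.10, 1.51 and 2.12. Of the other Deltex genes, Dtx3 read 0.876 in wild type and 1.48 and 1.79, and Dtx2 read 1.51 against 2.31 and 2.14, higher in both. Dtx4, at 5.64 against 4.80 and 6.70, and Dtx3l, at 15.9 against 15.6 and 23.7, were below wild type in KO1 and above it in KO2. Itch, a ubiquitin ligase that acts on Notch, read 9.29 against 14.4 and 16.8. None of these passed the test. Of the 17 tested genes of the nuclear complex, Rbpj included, 4 were higher in both and 3 lower. The 3 were Rbpj, Rita1, which exports RBP-J from the nucleus, at 1.11 against 0.358 and 0.963, and the acetyltransferase Kat2a, at 5.93 against 3.83 and 4.40. The Groucho corepressors through which Hes and Hey proteins act included Tle1, lower in both at 6.74 against 5.11 and 4.77, and Tle4, higher in both at 14.1 against 19.0 and 15.8, although in KO2 it lay below wild type after either scaling (log2 difference -0.12 with quantile normalization).

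**Figure D4:**
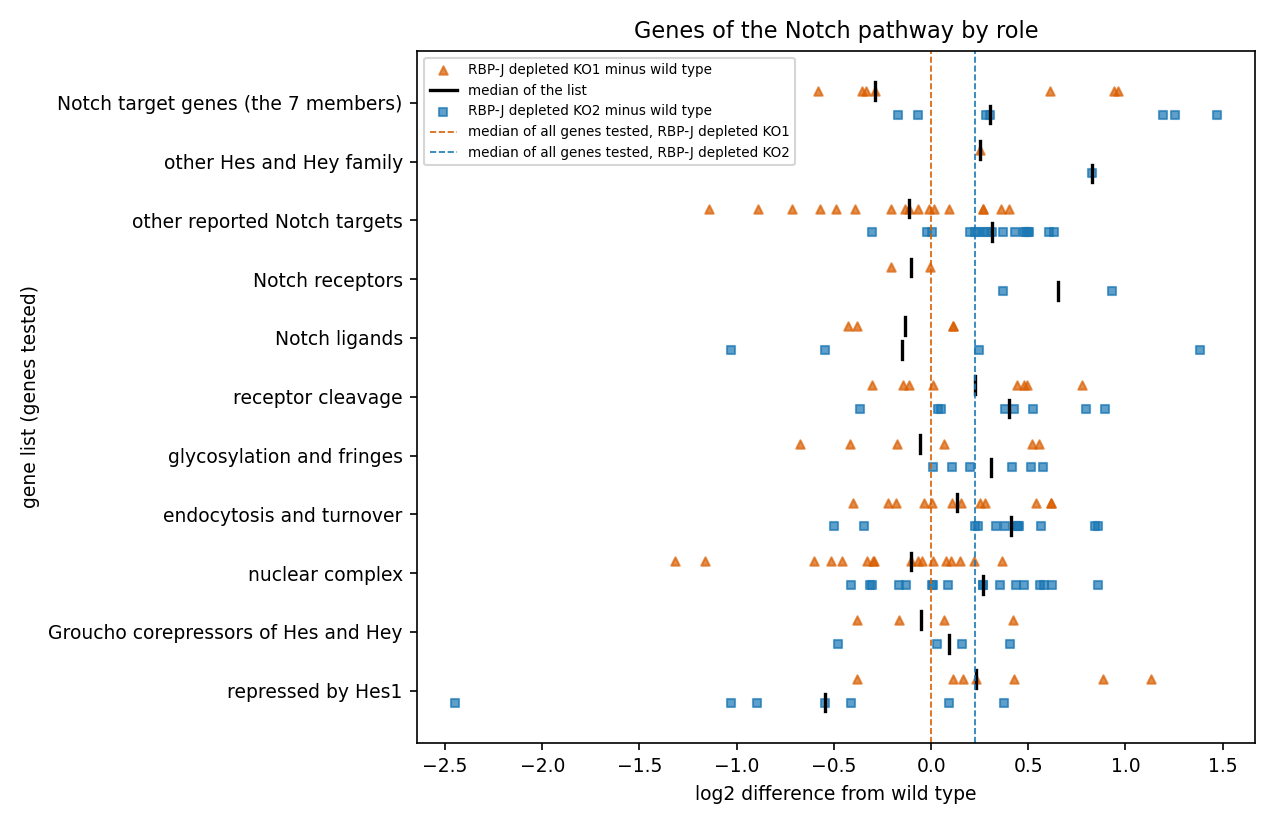
Log2 difference from wild type of each tested gene, by role in the Notch pathway, in KO1 (triangles) and KO2 (squares); black bars are list medians and dashed lines the medians over all genes tested, -0.003 and 0.22. The 7 Notch target genes span both sides of the dashed lines, with Hey1 and Nrarp at the right in both arrays, and no gene shown passed the test.

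Genes that Hes1 represses were divided between the depleted arrays. Of the 7 tested, 2 were higher in both and 1 lower in both, and the list medians were 0.23 in KO1 and -0.55 in KO2. Atoh1 read 3.73 in wild type, 5.09 in KO1 and 1.89 in KO2, so it lay above wild type in KO1 and below it in KO2. Hes1 lay below wild type in both, and its part in the Atoh1 values was not tested. Neurod1, a factor of enteroendocrine cells, read 1.33 against 3.21 and 1.44, and its small KO2 difference changed sign with a common 75th percentile per array (to -0.07). Cdkn1b, a cell cycle inhibitor, read 14.8 against 16.6 and 19.2. No member of this list passed the test. Goblet cell markers, which lie downstream of Atoh1, summed to 485 in wild type, 778 in KO1 and 652 in KO2 over 7 genes, and enteroendocrine markers to 85.0, 139 and 87.1 over 7. Of the tested markers, 6 of 7 for goblet cells and 3 of 5 for enteroendocrine cells were higher in both depleted arrays. The others, Muc2, Chga and Chgb, were above wild type in KO1 and below it in KO2. For comparison, 39.0% of all genes tested and 7 of 8 epithelial markers were higher in both. Nts, at 13.0 against 38.3 and 19.1, had the largest rise in intensity of the enteroendocrine list. The part of goblet and enteroendocrine cells in the Atoh1, Neurod1 and Hes6 values was not tested.

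The label of the tissue was checked on the same arrays. Epithelial markers were all measured, with summed intensities over 8 genes of 625 in wild type, 720 in KO1 and 790 in KO2. M cell and follicle-associated epithelium markers summed to 321, 343 and 455 over 7 genes, and Ccl20, the chemokine of this epithelium, read 49.9, 45.2 and 74.6. Blood vessel cells, which express Hey1 and Nrarp in other tissues, gave little signal. Of 8 endothelial markers 1, Pecam1, passed the filter, and Tek and Emcn lay under the pseudocount in every array. The 8 summed to 2.75 in wild type, 3.52 in KO1 and 4.59 in KO2, an order that Nrarp and Hey1 share, but Pecam1 alone read 1.64, 1.03 and 1.77, lowest in KO1. Their part in the Nrarp and Hey1 values was not tested. Fibroblast markers summed to 2.03, 2.78 and 4.65 over 7 genes, of which Col1a1 and Pdpn passed the filter: Col1a1 was lowest in KO1, at 0.928, 0.627 and 1.16, and Pdpn read 0.517, 0.997 and 1.29. The part of fibroblasts was not tested either. T cell markers summed to 14.8, 11.9 and 20.0 over 6 genes.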

How the data were processed

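RNA of mouse follicle-associated epithelium was hybridised to 3 Affymetrix arrays, 1 wild type and 2 RBP-J depleted. The authors deposited a linear intensity per probe set, from MAS5 according to the submitters' processing notes. The median intensity is 1 in each array. Detection calls were not used here, nor were scanner files. Arrays have no depth, and their number limits the precision.

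Of 45037 probe sets that are not controls, 34945 had 1 symbol in the platform annotation, 932 had several and 9160 were unnamed here. A gene was represented by its probe set with the highest mean, and genes with a mean of at least 0.598 (40th percentile over probe sets) were tested on log2(value + 0.248), the pseudocount being the 25th percentile of all values. Depleted and wild type were compared with limma 3.58.1 in R 4.3.3 (lmFit, eBayes with intensity trend), with Benjamini-Hochberg adjustment over 11885 genes. The fit takes the spread of the 2 depleted arrays to hold for the single wild type array too, and with 600 prior degrees of freedom the spread is mostly pooled over genes, which also sets the 95% intervals. P-values measure the spread between these samples alone. A second fit took 22612 probe sets singly. The procedure was tested on simulated data. The members and lists were chosen with earlier results of these data known. Genes named from a list are at most the 4 with the largest smaller difference of one direction in both arrays, with Atoh1, Rbpj, Xist, Eif2s3y, Kdm5d and Uty. Other list genes given (Olfm4, Heyl, Hey2, Hes2, Hes3, Hes7, Bhlhe41, Notch1, Notch2, Mfng, Dtx3l, Dtx4, Muc2, Chga, Chgb, Nts, Cd79a, Cd79b, Ms4a1, Cd22, Cr2, Pax5, Fcer2a, Col1a1, Pdpn, Pecam1, Tek, Emcn and Ccl20) were chosen after their values were seen. The nearest patterns are by Euclidean distance of the pair of differences. Alternatives were pseudocounts, filters, scalings, probe set rules and eBayes without trend.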

Additional observations from a re-analysis of the deposited data

How the results depend on the processing

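The count of Notch target genes called by limma was 0 under every alternative run, that is with pseudocounts of 1 and 1.24, quantile normalization, arrays scaled to one 75th percentile, no filter, a filter at the 60th percentile, probe sets averaged per gene, every probe set on its own and eBayes without trend. The lowest limma adjusted p of a member among these was 0.605, for Nrarp with probe sets averaged. That setting left 6 of the 7 genes, and the stricter filter 4. Over all genes the count of calls went from 10 to 4 under either scaling (quantile, 75th percentile), 1 with no filter, 6 with the stricter filter and 21 with every probe set on its own. The number of member probe sets 2-fold apart from wild type in KO1 and KO2 alike went from 0 to 1, Nrarp 1417985_at after quantile normalization and Hey1 after scaling to the 75th percentile, and to 2 as plain ratios, an alternative chosen after seeing the data. With 1 depleted array left out this count lay between 0 and 4. The median of the 7 genes, 0.45 with both arrays, lay between -0.29 and 0.30 with 1 depleted array left out, so it reversed without KO2; it was 0.24 and 0.21 with pseudocounts of 1 and 1.24, and 0.23 with the filter at the 60th percentile. The mean log2 difference of Hes6 turned to 0.034 with the mean of its probe sets, and lay between -0.34 and 0.30 with 1 depleted array left out; that of Lfng lay between -0.29 and 1.25. Of 72 values of single genes and probe sets under other settings, 71 kept their direction and their side of the threshold, Hey1, Nrarp, Hes1 and Dtx1 under all that were run. Much of this count was fixed in advance. Another filter or eBayes without trend cannot change the log2 difference of a gene, and no limma adjusted p came near the threshold. No paired analysis was possible because the wild type group has 1 array. The cause of each change was not tested.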

Other observations

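The genes whose pattern lay nearest to that of Hey1, the Notch target gene with the highest mean log2 difference, were found among all genes tested by the distance between pairs of log2 differences, over 2 depleted arrays against the same wild type array. They were Cenpj, at 1.16 in wild type, 2.54 in KO1 and 3.62 in KO2, Map2k3os, at 0.705 against 1.57 and 2.44, and Nfic, at 2.46 against 5.21 and 7.16. For Dtx1, the Notch target gene with the lowest mean, they were Sh3bp5, at 4.80 against 3.12 and 4.25, Zfp715, at 1.73 against 1.08 and 1.51, and Cyp11a1, at 2.61 against 1.66 and 2.28. None of the 6 was called by limma, and likeness over 3 arrays that share their reference is a description.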
